A study of Mus musculus with 11 samples.

Results

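Among the miRNAs counted in livers of telomerase-knockout mice, mmu-miR-5105, mmu-miR-5109, mmu-miR-5115 and mmu-miR-6243 were singled out because their levels deviated in certain, mostly shallow, libraries, and because names of this kind may stand for pieces of other RNAs. They are 4 of the 1281 mature names in the deposited count table, each is listed under a single hairpin, and all 4 were among the 388 names that passed a filter on low counts. Small RNA was sequenced from 11 liver samples of C57/B6 mice. All mice lacked telomerase and had short telomeres, and the labels call them G4. In 6 libraries (numbers 6, 7, 8, 10, 11 and 12) the mice also lacked p53 (G4 p53-/-), and in 5 libraries (numbers 1 to 5) p53 was intact (G4 p53+/+). The animals were untreated. The sources used here give neither their age, their sex, nor the alleles of telomerase and p53, and animals with normal telomere length are outside the data analysed here. Each library carries an HA number of its own in the labels, under 500 for p53-/- libraries 6, 7 and 8 and over 500 for the other p53-/- and all p53+/+ libraries. The labels do not say what this number stands for or that each library comes from its own animal, and p-values therefore describe the spread between libraries, which may be technical. Since the members were chosen from their values in these libraries, how those values stand apart between libraries is given as a description, without a test, and their rows of the genotype fit over all miRNAs are likewise not independent of that choice.

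MicroRNAs are cut from hairpin precursors, typically by the nucleases Drosha and Dicer, and are loaded into Argonaute proteins, which they guide to messenger RNAs through the seed, bases 2 to 8 of the mature strand. A small RNA library also takes up breakdown products of abundant structured RNAs, such as ribosomal, transfer and small nucleolar RNA (snoRNA), when their length is similar. Short-read surveys have entered some such pieces into miRNA catalogues, and a number of those entries were later withdrawn. No role in liver is assigned here to any of these 4 names. Read lengths and alignments were not analysed here, and the reference used held no sequence or position for any of the 4. Whether their reads come from other RNAs was therefore not tested.

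Library totals, with each mature name counted once, ran from 2202415 to 6682492 counts in the p53-/- libraries and from 1905609 to 6448820 in the p53+/+ libraries. The totals fell into separate clusters: p53-/- library 11 and p53+/+ libraries 1 and 2 held under 3000000 counts, and the other 8 held between 4453903 and 6682492. Between 535 and 637 names were detected per library. miR-122-5p, the miRNA that defines hepatocytes, made up between 52.8% and 64.0% of counts in p53-/- libraries and between 52.4% and 57.7% in p53+/+ libraries, so this defining marker was abundant in every library. No measure of RNA integrity, adapter content or read length was analysed here, so the library total is the only mark of library quality used. An upper limit of 3 counts, allowed by a count of 0, stood for between 0.449 and 1.57 CPM, the count after scaling each library to the same fixed total. All 4 members were far above it.

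mmu-miR-6243 was the most abundant of the 4 by reads, at a mean of 4644 CPM, and ranked 22nd of the 1281 names. It stood at 2758, 2486, 3294, 2481, 7589 and 4745 CPM in p53-/- libraries 6, 7, 8, 10, 11 and 12. In p53+/+ libraries 1 to 5 it stood at 9964, 7089, 2698, 2212 and 5772 CPM. The highest values were those of libraries 1, 11 and 2, the shallow ones, followed by libraries 5 and 12, and both genotypes spanned most of the range. The highest level was 4.50 times the lowest, the narrowest range of the members.

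mmu-miR-5109 averaged 3162 CPM and ranked 29th. Its levels were 3063, 1489, 1755, 1315, 9668 and 2084 CPM in p53-/- libraries 6, 7, 8, 10, 11 and 12, and 5930, 2943, 1190, 955.5 and 4386 CPM in p53+/+ libraries 1 to 5. Library 11 alone stood above every p53+/+ library, while library 2, as shallow as library 1, was below libraries 5 and 6. The highest level was 10.1 times the lowest, the widest range of the members.

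mmu-miR-5115 averaged 164.2 CPM and ranked 110th. In the p53-/- libraries it stood at 81.2, 83.3, 107.0, 90.5, 216.6 and 152.2 CPM, in the same order as above, and in p53+/+ libraries 1 to 5 at 566.3, 199.4, 72.2, 63.6 and 173.6 CPM. Library 1 was far above the next highest, library 11, and libraries 2, 5 and 12 followed in that order. The range was 8.91-fold.

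mmu-miR-5105 was the least abundant, at a mean of 68.4 CPM and rank 140. Its levels were 46.9, 26.7, 44.9, 34.4, 132.1 and 65.1 CPM in p53-/- libraries 6, 7, 8, 10, 11 and 12, against 163.8, 103.4, 22.0, 23.3 and 89.4 CPM in p53+/+ libraries 1 to 5. Libraries 1, 11, 2, 5 and 12 again led in that order, and the range was 7.43-fold. Counting error was small beside these ranges even for this member: the 95% Wilson interval was 146.9 to 182.7 CPM in library 1, from 322 counts, and 18.5 to 26.2 CPM in library 3, from 128 counts. Such intervals cover counting error only, since no marking of reads by molecule is described.

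**Figure D1:**
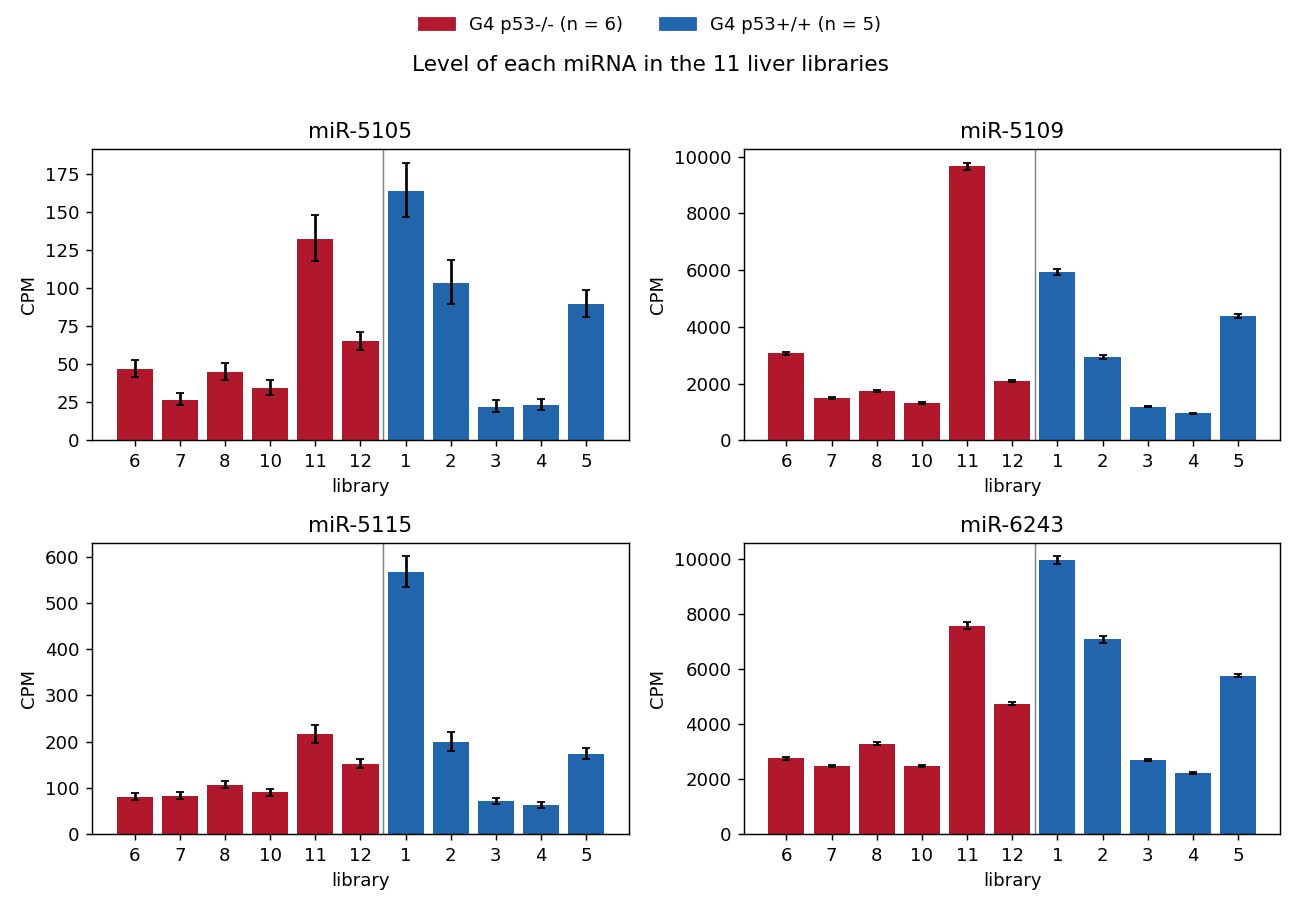
CPM of each miRNA (y axis, linear from 0) in each library (x axis), with p53-/- libraries in red left of p53+/+ libraries in blue; bars are single libraries and error bars are 95% Wilson intervals for counting error. Libraries 11, 1, 2 and 5 carry the tall bars in all 4 panels except that library 6 exceeds library 2 for miR-5109.

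The choice of members described a deviation in single libraries, and the values fit that wording only in part. For miR-5105, miR-5115 and miR-6243 all 3 libraries under 3000000 counts lay above all 8 deeper ones, a separation shown by 26 of the 388 tested miRNAs (6.7%). It was part of how the members were picked, so nothing is read from it. For miR-5105 the 3 shallow libraries spanned 103.4 to 163.8 CPM and the 8 deeper ones 22.0 to 89.4 CPM. For miR-5115 the spans were 199.4 to 566.3 and 63.6 to 173.6 CPM, and for miR-6243 they were 7089 to 9964 and 2212 to 5772 CPM. For miR-5109 they overlapped, at 2943 to 9668 and 955.5 to 4386 CPM. The top of the deeper range was library 5 for each member, the least deep of those 8. Second came library 12, the deepest library of all, for miR-5105 (65.1 CPM), miR-5115 (152.2 CPM) and miR-6243 (4745 CPM), and library 6 for miR-5109 (3063 CPM). A high level was thus not found in shallow libraries alone.

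Raw counts of the members barely followed the library total. miR-6243 had between 13509 and 31711 counts per library, a 2.35-fold range, while totals varied 3.51-fold. Its 3 shallow libraries held 13509 to 19583 counts and its 8 deeper ones 14266 to 31711. miR-5115 had 380 to 1113 counts in the shallow libraries and 410 to 1017 in the deeper ones, and miR-5105 had 197 to 322 and 128 to 435. For miR-5109 the counts were 5609 to 21292 and 6162 to 19533. The count spans of shallow and deeper libraries thus overlapped for every member, though the totals of the same libraries did not. How many of all tested miRNAs show such an overlap was not counted, so it is not read as particular to the members.

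Across the 11 libraries the fitted change in log2 count per doubling of the total was 0.09 for miR-6243, -0.03 for miR-5115, -0.11 for miR-5109 and -0.17 for miR-5105. A miRNA at a constant share of the library would have a value of 1. The median of all 388 tested miRNAs was 0.88, and 378 of them were above 0. The members took the 6th, 7th, 8th and 12th lowest places. Over the 8 deeper libraries alone, whose totals span a narrower range, the values were -0.26 for miR-6243, -0.05 for miR-5115, -1.84 for miR-5109 and -1.08 for miR-5105, against a median of 1.29. There 32, 40, 6 and 13 of the 388 were lower, in the same order. All members but miR-5109 were thus less extreme among the tested miRNAs than over all 11 libraries. Over the 11 libraries, the other 8 names among the lowest 12, listed after their values were seen, were miR-677-5p (-0.77), miR-5121 (-0.66), miR-1940 (-0.56), miR-141-3p (-0.37), miR-3470a (-0.20), miR-6240 (-0.003), miR-466i-5p (-0.0) and miR-5132-5p (0.07).

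**Figure D2:**
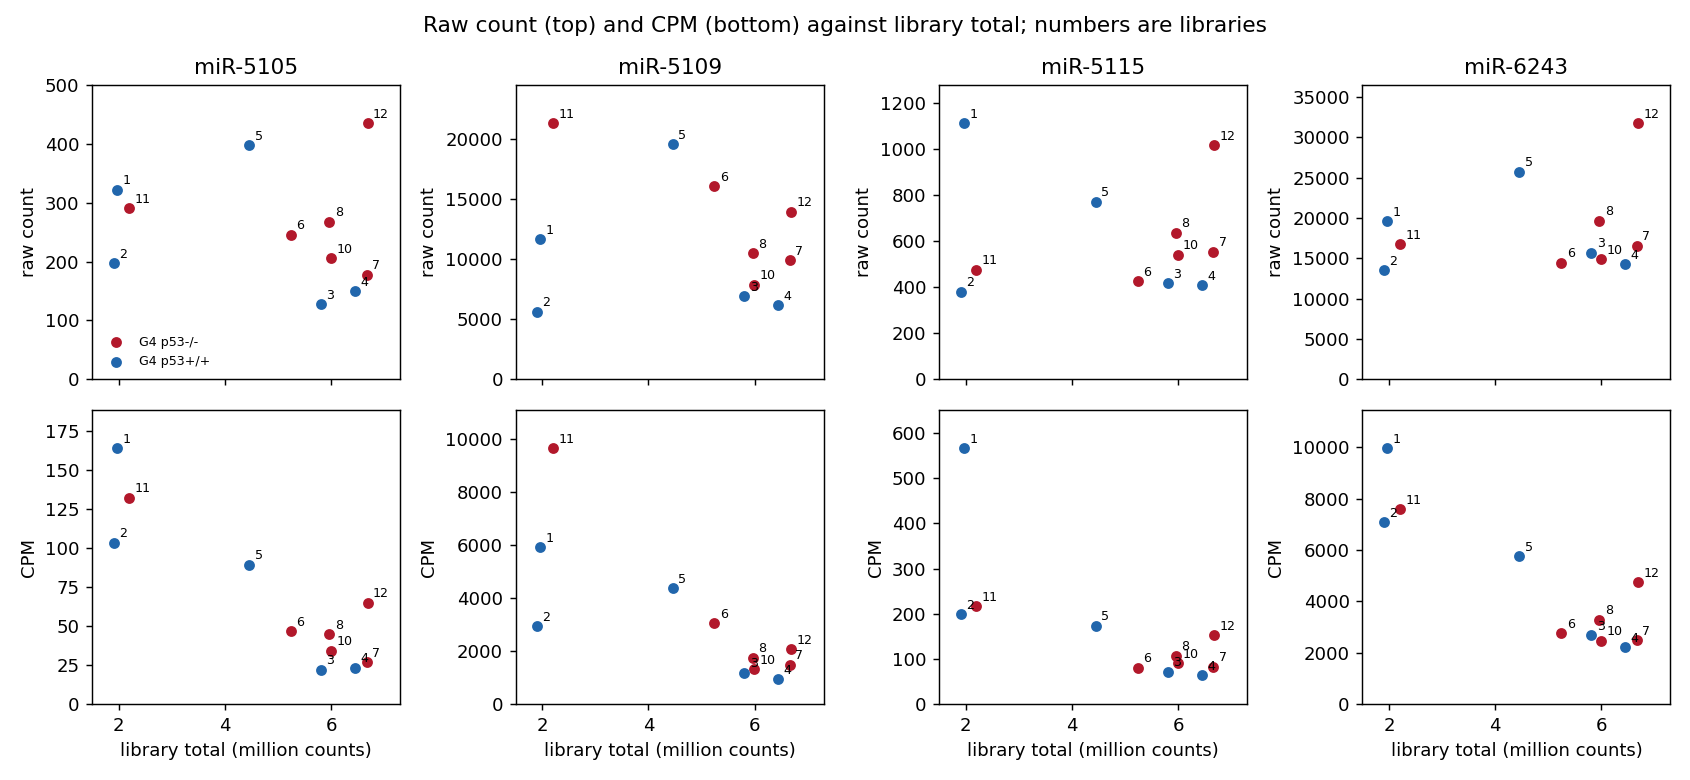
Raw count (top row) and CPM (bottom row) of each miRNA against library total in units of 1e6 counts, on linear axes; each point is a library with its number, p53-/- in red and p53+/+ in blue. Raw counts of libraries 1, 2 and 11 lie within or near the range of the deeper libraries, while their CPM lie at the upper end.

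**Figure D3:**
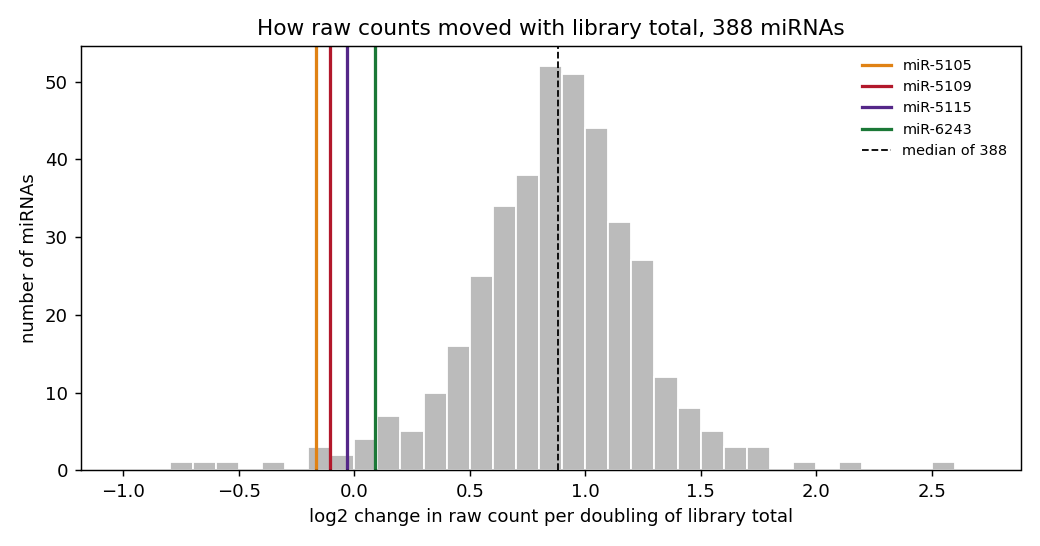
Histogram over the 388 tested miRNAs of the fitted log2 change in raw count per doubling of the library total; coloured lines mark the 4 members and the dashed line the median of 0.88. The members lie between -0.17 and 0.09, at the lower edge of the distribution.

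As ranks, CPM and library total gave a Spearman rho of -0.68 for miR-5105, -0.67 for miR-5109, -0.62 for miR-5115 and -0.73 for miR-6243 over the 11 libraries. Pearson's r of log2 CPM was -0.85, -0.81, -0.81 and -0.87 in the same order. No p is given, because the members were picked with this relation in view. The median rho of all tested miRNAs was -0.05, from -0.86 to 0.76, and 17, 19, 35 and 6 of the 388 had a lower rho than miR-5105, miR-5109, miR-5115 and miR-6243, in that order. Because the totals fell into separate clusters, these values mostly set 3 libraries against 8. Within the 8 deeper libraries rho was -0.24, -0.41, -0.07 and -0.36, and r was -0.54, -0.74, -0.37 and -0.47. Within the 6 p53-/- libraries rho was -0.43, -0.60, -0.09 and -0.31, and r was -0.82, -0.94, -0.67 and -0.73. Without libraries 1 and 2, the farthest from the median total, r was -0.77, -0.90, -0.69 and -0.76 over 9 libraries. Library 11 was the only shallow library in both of these sets, and r, more than rho, gives weight to such a distant point. The 5 p53+/+ libraries are too few for a correlation. Each rho was thus nearer 0 in the 8 deeper libraries than over all 11, and that of miR-5115 was nearest, while r of miR-5109 kept much of its size there.

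The levels of the 4 members went together from library to library. Over the 11 libraries Pearson's r of log2 CPM between them was highest for miR-5105 with miR-6243 (0.97), then 0.96 for miR-5115 with miR-6243, 0.93 for miR-5105 with miR-5115 and 0.91 for miR-5105 with miR-5109. It was 0.86 for miR-5109 with miR-6243 and lowest for miR-5109 with miR-5115 (0.80). In the 8 deeper libraries the 6 values ran from 0.74 to 0.96. Of all 75078 pairs of tested miRNAs, 1.74% reached the lowest member value over 11 libraries and 6.78% over the 8. The points share libraries and depth, and the members were picked for a like pattern, so these values carry no p.

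Ratios within a library remove the library total and show where the members part. miR-6243 had 57.4 to 93.1 counts for each count of miR-5105 in p53-/- libraries and 60.8 to 122.4 in p53+/+ libraries. Against miR-5115, the miR-6243 ratio was 27.4 to 35.0 in p53-/- libraries and 33.3 to 37.4 in p53+/+ libraries 2 to 5. Library 1 alone stood apart, at 17.6. Set against miR-5109, the miR-6243 ratio was 0.785 in p53-/- library 11 and 0.901 in p53-/- library 6, where miR-5109 was the more abundant. It lay between 1.67 and 2.28 in the other p53-/- libraries and between 1.32 and 2.41 in the p53+/+ libraries. miR-5109 thus departed from the shared pattern by being high in libraries 11 and 6. The ratio of miR-6243 to miR-5105 was also lowest in libraries 11 (57.4) and 6 (58.8), with library 1 close at 60.8.

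**Figure D4:**
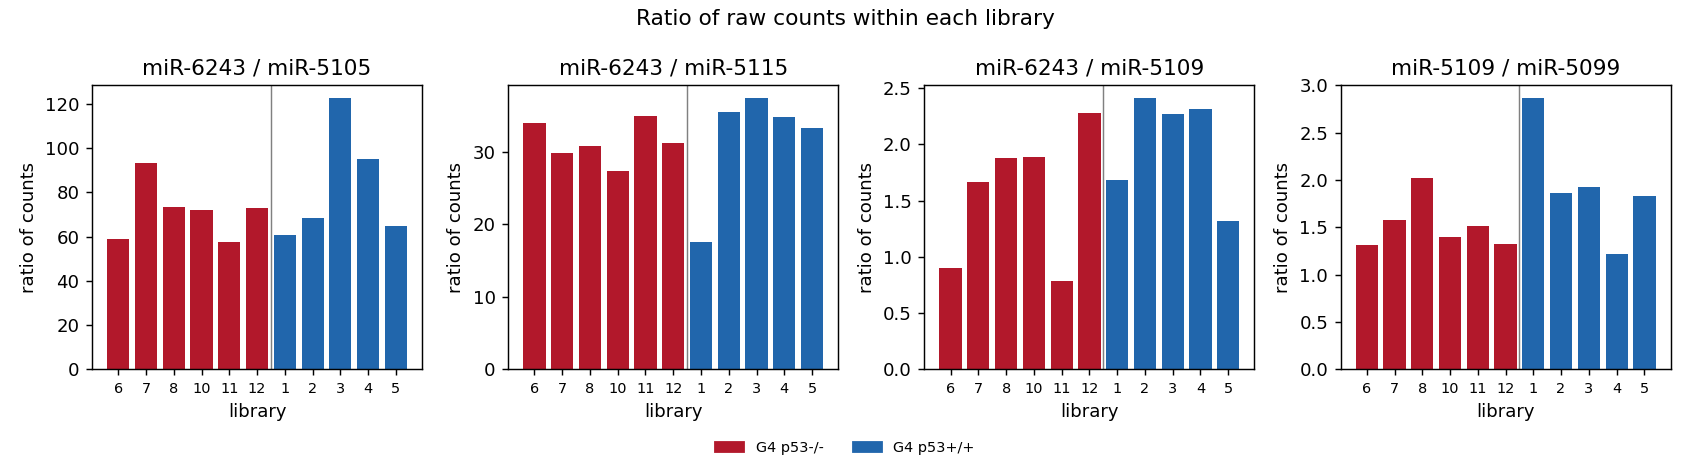
Ratio of raw counts within each library (y axes, linear from 0) for miR-6243 over each other member and for miR-5109 over miR-5099, with p53-/- libraries in red left of p53+/+ libraries in blue; bars are single libraries. Library 1 is low at 17.6 for miR-6243 over miR-5115, and libraries 6 and 11 are low at 0.901 and 0.785 for miR-6243 over miR-5109.

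Together the members took up 0.392% to 1.76% of all counts in p53-/- libraries, with a mean of 0.730 ± 0.518% (SD, n = 6), and 0.325% to 1.66% in p53+/+ libraries, with a mean of 0.892 ± 0.548% (SD, n = 5). Leaving them out of the totals would raise the CPM of every other miRNA by 0.327% in library 4, where they were scarcest, and by 1.79% in library 11, where they were most abundant. The shift in every other CPM value was thus under 2% in each library.

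The members varied more between libraries of a genotype than most miRNAs of similar level. The biological coefficient of variation fitted by edgeR, which is the spread between libraries beyond counting error, was 54.9% for miR-5105, 59.1% for miR-5109, 52.0% for miR-5115 and 40.2% for miR-6243. Of the 61, 19, 51 and 17 other miRNAs within 1 log2 unit of their levels, in the same order, 3, 0, 2 and 0 varied more, and the medians of those sets were 28.2%, 25.4%, 26.2% and 24.8%. The spread is part of what the members were chosen for.

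Other miRNAs with the most similar pattern were found by Pearson's r of log2 CPM over the 11 libraries, taking 3 for each member among the tested miRNAs that were not members. For miR-5109 they were miR-5099 (0.94), miR-690 (0.89) and miR-6240 (0.87). For miR-5105 they were miR-351-5p (0.90), miR-1940 (0.90) and miR-3470a (0.89), and for miR-5115 they were miR-1940 (0.93), miR-677-5p (0.90) and miR-3470a (0.90). For miR-6243 they were miR-362-5p (0.94), miR-1940 (0.93) and miR-222-3p (0.92). The median r over all 384 was between 0.09 and 0.19. In the 8 deeper libraries alone these r ran from 0.60 for miR-677-5p with miR-5115 to 0.95 for miR-1940 with miR-5105.

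miR-5099 stood at 2338, 945.3, 867.4, 938.6, 6379 and 1574 CPM in p53-/- libraries 6, 7, 8, 10, 11 and 12, and at 2073, 1584, 617.3, 785.1 and 2396 CPM in p53+/+ libraries 1 to 5. Like miR-5109 it was highest in library 11 and, among the deeper p53-/- libraries, in library 6. The ratio of miR-5109 to miR-5099 was between 1.31 and 2.02 in p53-/- libraries and between 1.22 and 2.86 in p53+/+ libraries, where library 1 was the highest. miR-1940, near 3 of the members, had 20.4 to 56.5 CPM in the 3 shallow libraries and 4.95 to 10.1 CPM in the 8 deeper ones. miR-222-3p, which belongs to a well-studied cluster with miR-221, moved much less, at 299.2 to 367.9 CPM in the shallow libraries and 214.3 to 297.7 CPM in the deeper ones.

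The mature sequences of miRNAs near the members by pattern, where available, are shown to identify RNAs whose levels went with the members. miR-5121 is added for its low fitted change of count with library total, and was not among the 3 most alike of any member. All are RefSeq sequences of build GRCm38.p6, printed 5′ to 3′ with the seed in capitals. The reference used held no sequence of the 4 members, miR-5099, miR-1940 or miR-3470a.
miR-690: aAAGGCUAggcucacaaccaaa
miR-6240: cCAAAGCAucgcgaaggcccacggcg
miR-351-5p: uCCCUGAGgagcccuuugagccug
miR-677-5p: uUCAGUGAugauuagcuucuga
miR-362-5p: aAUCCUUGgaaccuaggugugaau
miR-222-3p: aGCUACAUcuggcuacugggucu
miR-5121: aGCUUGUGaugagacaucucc
No seed is shared between any of these. miR-6240 has 26 bases, of which 69.2% are G or C, where the median length of the tested miRNAs with a sequence was 22 bases. miR-677-5p occupies bases 128085291 to 128085312 of chromosome 10 (GRCm38, plus strand), within Atp5b. GENCODE M21 lists its own gene there, Mir677, under the type snoRNA, so no separate snoRNA gene is shown. miR-5121 occupies bases 45126925 to 45126945 of chromosome 7 (minus strand), within Snord33, a snoRNA encoded in the ribosomal protein gene Rpl13a, and its letters occur exactly in the Snord33 transcript and in a retained-intron transcript of Rpl13a. The only exact match of miR-677-5p is to the transcript of Mir677 itself, so that match was given in advance. Of 317 tested miRNAs with a sequence, 13 (4.1%) occur exactly in a transcript annotated as a structured RNA, miR-677-5p by its own gene among them. miR-677-5p and miR-5121 had the lowest fitted change of log2 count per doubling of the total of all 388 tested miRNAs, at -0.77 and -0.66. They were picked for this after their values were seen. miR-141-3p (-0.37) and miR-5132-5p (0.07), also among the lowest values, have sequences that are not printed here. miR-141-3p overlaps Gm15884 and Gm29008, and miR-5132-5p lies within Irak1, none of them annotated as a structured RNA. Of 317 tested miRNAs with coordinates, 12 (3.79%) overlap a snoRNA, ribosomal RNA or other small structured RNA gene on the same strand. miR-677-5p is among these by its own gene.
The other printed miRNAs lie outside such genes as listed in GENCODE M21. miR-690 lies within Fgf12 (chromosome 16, 28599940 to 28599961, minus strand), and its letters also occur exactly in transcripts of 3 other genes, BC018473, Fundc2 and Gm42826. An exact match in any transcript other than a miRNA was found for 101 of the 317 (31.9%). miR-362-5p lies within Clcn5 (chromosome X, 7242019 to 7242042, minus strand). miR-222-3p (chromosome X, 19146901 to 19146923, minus strand), miR-351-5p (chromosome X, 53053315 to 53053338, minus strand) and miR-6240 (chromosome 5, 114851973 to 114851998, plus strand) overlap no other annotated gene at these positions. The look-up of positions left out a chromosome, so a further position of a miRNA there would not be listed. For miR-6240, miR-351-5p, miR-362-5p and miR-222-3p no such match was found in GENCODE M21 transcripts. The search took only exact matches over the whole mature sequence. Ribosomal RNA was covered only as far as GENCODE M21 lists it, and nuclear transfer RNA was not among the structured types counted. A lack of a match therefore does not settle whether the letters occur in such RNAs. An overlap or a match is a description of position or letters and says nothing of where the reads came from.

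Neighbours in the numbering of the catalogue give a wider view of names of this kind. Of 44 mature names from miR-5097 to miR-5136, 30 had at least 1 read and 10 passed the filter, 3 of them members. Of 8 names from miR-6236 to miR-6250, 3 had a read and 2 passed, miR-6243 and miR-6240. No read was found for 14 and 5 names of the blocks, and the members were among the few abundant ones. In the genotype test 0 of the 10 and 0 of the 2 were called by edgeR, against 0.258% of all tested, and their median log2 fold changes were 0.001 and -0.26, against -0.01 over all tested. The median rho of CPM with library total was -0.59 over the 10 tested names of the first block and -0.74 over the 2 of the second, against -0.05 over all tested. Without the members, which were chosen for that relation, the first block's median over 7 names was -0.56, and miR-6240, the other name of the second, had -0.75. Over the 8 deeper libraries alone, the rho of these 7 names ran from -0.41 for miR-5121 to 0.14, and that of miR-6240 was -0.45. Those of the 7 under 10 CPM averaged only 2.12 to 4.31 CPM. The tested names in these blocks that were not members and averaged at least 10 CPM were miR-5099, miR-5117-5p, miR-6240 and miR-5121. miR-5117-5p stood at 94.8 to 499.9 CPM in p53-/- libraries and 108.9 to 331.6 CPM in p53+/+ libraries, with a rho of -0.03 with library total. For miR-5099, whose levels are given with the similar patterns, rho was -0.56. miR-6240 had 48.1 to 278.3 CPM in p53-/- libraries and 31.2 to 226.2 CPM in p53+/+ libraries, with library 11 the highest in the table and library 2 next. miR-5121 had 2.00 to 24.4 CPM in p53-/- libraries and 1.21 to 32.0 CPM in p53+/+ libraries, with libraries 2 and 6 the highest, and a rho of -0.73.

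Whether the members differ between livers without and with p53 is the comparison the design gives. None of the 4 passed edgeR's quasi-likelihood test with Benjamini-Hochberg adjustment over all 388 miRNAs, in which 1 miRNA (0.258%) was called, at lower level in p53-/- livers. At an unadjusted p under 0.05 there were 0 of the 4, against 67 of all 388 (17.3%), and DESeq2 called 0 of the 4, against 7 of all 388 (1.8%). miR-5115 averaged 121.8 ± 53.4 CPM in p53-/- livers (SD, n = 6) and 215.0 ± 205.4 CPM in p53+/+ livers (SD, n = 5). Its log2 fold change, p53-/- minus p53+/+, was -0.78 (SE 0.45, 95% interval -1.75 to 0.20, edgeR adjusted p = 0.402), with 5 of 6 p53-/- libraries below the p53+/+ median. That count was the same for miR-5105 and miR-6243 and was 4 of 6 for miR-5109. It was not made over all tested miRNAs. miR-6243 averaged 3892 ± 2000 CPM in p53-/- livers and 5547 ± 3208 CPM in p53+/+ livers, or -0.49 on the log2 scale (SE 0.34, 95% interval -1.22 to 0.25, edgeR adjusted p = 0.516). miR-5105 averaged 58.4 ± 38.4 CPM in p53-/- livers and 80.4 ± 59.7 CPM in p53+/+ livers, at -0.44 (SE 0.48, 95% interval -1.47 to 0.59, edgeR adjusted p = 0.670). miR-5109 averaged 3229 ± 3214 CPM in p53-/- livers and 3081 ± 2117 CPM in p53+/+ livers, at 0.03 (SE 0.53, 95% interval -1.10 to 1.16, edgeR adjusted p = 0.987).

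The genotypes overlapped for each member, while they did not overlap for 7 of the 388 tested miRNAs (1.8%). Library depth was uneven between genotypes, with 1 of 6 p53-/- and 2 of 5 p53+/+ libraries under 3000000 counts. With the log2 library total as a covariate the log2 fold changes were 0.24 for miR-5105, 0.45 for miR-5109, -0.00 for miR-5115 and -0.02 for miR-6243. Without p53+/+ libraries 1 and 2 they were 0.32, 0.50, 0.20 and 0.08, and without p53+/+ library 1 alone that of miR-5115 was -0.04. Without p53-/- libraries 6, 7 and 8, whose HA numbers lie apart from the rest, they were -0.18, 0.31, -0.61 and -0.29. The value of miR-5109 also turned negative when single libraries were left out, p53-/- library 6 or 11 or p53+/+ library 2, 3 or 4 (lowest -0.46, without library 11). The intervals of all 4 include changes of more than 1.5-fold in at least 1 direction, so a p above the threshold does not show equal levels.

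Of the named cell-type miRNAs, the summed level of 5 hepatocyte miRNAs was between 606387 and 702735 CPM in p53-/- libraries and between 589604 and 651185 CPM in p53+/+ libraries. It was lower where the members were higher (rho from -0.75 for miR-6243 to -0.44 for miR-5109 over 11 libraries). The sum is mostly miR-122-5p (mean 563963 CPM), and CPM are shares of 1 total. Singly the markers differed in rho with library total: -0.61 for miR-194-5p, 0.13 for miR-192-5p, 0.18 for miR-122-3p, 0.37 for miR-122-5p and 0.74 for miR-148a-3p. The 3 erythroid, 5 leukocyte and 2 endothelial miRNAs had rho between -0.37 and 0.27 with the members. The 4 pancreas and 3 striated muscle miRNAs had rho between -0.29 and 0.20. None of these markers was at 0 in every library. Their part in the members' levels was not tested.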

How the data were processed

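Reads per mature miRNA and hairpin were deposited by the authors as raw counts, with mouse build GRCm38 and limma named in the submitters' processing notes. Neither aligner, counter, trimming nor size selection is named in the sources used here. The authors also deposited normalized values in CPM, which equal each count divided by the sum over the table's 1418 entries (largest departure 0.005). Values of the library files and of the series tables were identical (0 differing). Here each of 1281 mature names was counted once, by its highest count over hairpins, and CPM were recomputed on those totals. For the genotype comparison edgeR 4.0.16 (R 4.3.3) was fitted to all libraries after filterByExpr, scaled by TMM, with its quasi-likelihood test and Benjamini-Hochberg adjustment over 388 names at a threshold of 0.05. SE was derived from the F statistic. The script was tested on simulated data. DESeq2 1.42.0 was an alternative. Correlations used log2(CPM + 0.5) for r. Per the labels' protocols, RNA came from 50 mg of liver. The members and lists were chosen with earlier results of these data known. Named miRNAs are the 4 members, the 3 most alike for each, miR-122-5p, the other hepatocyte markers, and names in the number blocks averaging at least 10 CPM. Others are said to be chosen after their values were seen.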

Additional observations from a re-analysis of the deposited data

Results flagged for a closer look

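In each genotype the gap between an extreme library and its nearest neighbour, as a share of the whole range, was set beside Dixon's 95% critical value for 10 sets, the 4 miRNAs and the library total. By chance about 1 in 20 sets of unselected values would pass, but the members were chosen for deviating in single, mostly shallow libraries, so their gaps describe that choice, are no test of it and are not read against that rate. In p53-/- livers library 11 was the highest for miR-5109, at 9668 CPM with a gap of 0.791 of the range, and for miR-5105, at 132.1 CPM with a gap of 0.636. The same library had the lowest total of its genotype, 2202415 counts, with a gap of 0.679 (critical value 0.625 for 6 libraries). In p53+/+ livers library 1 was the highest for miR-5115, at 566.3 CPM with a gap of 0.730 (critical value 0.710 for 5 libraries). The part of library depth in these values was not tested.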

How the results depend on the processing

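No paired analysis was possible because the replicate numbers run across both genotypes and the groups share none. Over 19 alternatives none of the 76 genotype values of the members passed the threshold (smallest adjusted p = 0.189, in edgeR), and DESeq2 called 7 of 388 miRNAs in place of 1. Leaving out each replicate gave log2 fold changes of -0.75 to -0.02 for miR-5105, -0.46 to 0.39 for miR-5109, -1.07 to -0.04 for miR-5115 and -0.73 to -0.18 for miR-6243, and 1 call each time. The sign turned for miR-5105 with library total as a covariate (0.24), for miR-5105, miR-5115 and miR-6243 without libraries 1 and 2 (0.32, 0.20 and 0.08), and for miR-5105, miR-5109 and miR-5115 without libraries 1, 2 and 11 (0.001, -0.078 and 0.021). That of miR-5109 also turned on leaving out a single library, at -0.032 and -0.456 without p53-/- libraries 6 and 11 and at -0.060, -0.222 and -0.232 without p53+/+ libraries 2, 3 and 4. The cause was not tested. The rank correlation with library total moved, for miR-5105, miR-5109, miR-5115 and miR-6243, to -0.47, -0.58, -0.35 and -0.55 without the 2 libraries farthest from the median total, and to -0.24, -0.41, -0.071 and -0.36 in the 8 libraries over 3000000 counts, a setting chosen after seeing the data. Within p53-/- libraries it moved to -0.43, -0.086 and -0.31 for miR-5105, miR-5115 and miR-6243. A move counts where it exceeds the largest shift from leaving out a single replicate, over which the values ran from -0.83 to -0.58, -0.75 to -0.61, -0.75 to -0.49 and -0.89 to -0.64. TMM scaling, the authors' CPM and totals without miR-122-5p stayed within that shift.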
